A study of Mus musculus with 6 samples.

Results

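The *Adamts* and *Mmp* metalloproteases and the *Timp* genes, which encode their inhibitors, were examined by bulk RNA-Seq in the cardiac outflow tract (OFT) of mouse embryos at E13.5. Members were the protein-coding genes with a symbol of the families *Adamts*, *Adamtsl*, *Mmp* or *Timp1* to *Timp4* and more than 5 reads over all libraries. The rule gave 43 genes of the 28777 listed and of the 28157 that were tested. A further 8 *Mmp* symbols of the annotation (*Mmp1a*, *Mmp1b*, *Mmp3*, *Mmp7*, *Mmp10*, *Mmp20*, *Mmp21* and *Mmp27*) matched the families but were not among these members. Of the 43 members, 35 had a mean of at least 1 CPM (TMM-scaled counts relative to library depth) and 8 were below it.

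Adamts proteases are secreted zinc enzymes that bind to the extracellular matrix and cut its components, among them the proteoglycan versican, the propeptides of fibrillar collagens and proteins of the fibrillin network. Mmp enzymes, of which some are secreted and some are anchored in the membrane, cut collagens, gelatin and other matrix proteins, and most are made as inactive proenzymes. Timps are small secreted proteins that block the active sites of these enzymes, and Adamts-like proteins share the ancillary domains of the Adamts family but have no protease domain. In the embryonic OFT the cushions are rich in versican and hyaluronan, and the clearing and replacement of this matrix accompanies the formation of the semilunar valves.

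The study compared compound mutant and wildtype littermates to find genes that differ in the OFT before valve malformations are seen. The 6 libraries comprised 3 labelled *Notch1*+/-; *Nos3*-/- (mutant) and 3 labelled wildtype (*Notch1*+/+; *Nos3*+/+), from crosses of *Notch1*+/-; *Nos3*+/- males with *Nos3*+/- females on a C57/BL6J background. Both knockouts are germline alleles present in every cell, and each library was made from 3 OFTs pooled after genotyping, 18 OFTs in all, so a library is not a single embryo. The litters and the sex of the embryos are not given in the sources used here.

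The deposited counts summed to between 34729103 and 44387490 per library. *Nos3* had 31.8, 47.2 and 48.1 CPM in wildtype 1, 2 and 3 and 22.1, 22.0 and 20.4 CPM in mutant 1, 2 and 3. *Notch1* had 74.3, 88.2 and 83.6 CPM in the wildtype libraries and 155, 161 and 139 CPM in the mutant libraries, and thus had more transcript in the group labelled as heterozygous for it (log2 fold change 0.89, adjusted p = 0.0313 from edgeR). The counts cover whole genes, and reads from exons that a knockout allele may retain are included. Because *Notch1* goes against its label, wildtype and mutant below name the labels of the libraries, and every direction is a direction between labels. Titles and descriptions disagree on which library is wildtype 2 and which is wildtype 3, so these numbers serve as names only. Markers of liver, which the OFT should lack, summed to 91.0 CPM in wildtype 2 and 24.8 CPM in wildtype 3, and to between 1.03 and 4.88 CPM in the other 4 libraries.

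The members covered a wide range of transcript levels in the wildtype OFT. Per kilobase of exon, *Mmp2*, which encodes a secreted gelatinase, had the highest level among the members at 73.4 ± 17.2 CPM per kilobase (SD, n = 3). It was followed by *Mmp15*, a membrane-type Mmp, at 45.5 ± 6.17, by the inhibitor *Timp2* at 44.0 ± 7.98, and by *Mmp14*, the membrane-type protease that activates proMmp2 in a complex with Timp2, at 41.7 ± 10.1 CPM per kilobase (SD, n = 3 each). The ranges of *Mmp15* (40.1 to 52.3), *Timp2* (36.8 to 52.6) and *Mmp14* (32.7 to 52.6) overlapped, so the order of these 3 genes is within their spread, whereas the lowest *Mmp2* value was 55.6 CPM per kilobase. *Adamts1*, a versican-cutting protease, led its family at 23.97 ± 5.25 CPM per kilobase (SD, n = 3), and its range of 20.2 to 29.97 overlapped that of *Timp1* (18.5 to 20.7). *Mmp23* (16.5), *Timp3* (15.2), *Mmp11* (12.5) and *Adamts8* (9.21 CPM per kilobase, wildtype means) came next. The remaining members with at least 1 CPM had wildtype means between 0.194 CPM per kilobase for *Mmp25* and 6.77 for *Adamts10*. In the mutant libraries *Mmp2* was again highest, at 101 ± 11.98, while *Mmp14* at 54.6 ± 6.75 and *Timp2* at 50.1 ± 5.82 stood above *Mmp15* at 38.0 ± 3.18 CPM per kilobase (SD, n = 3 each).

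**Figure D1:**
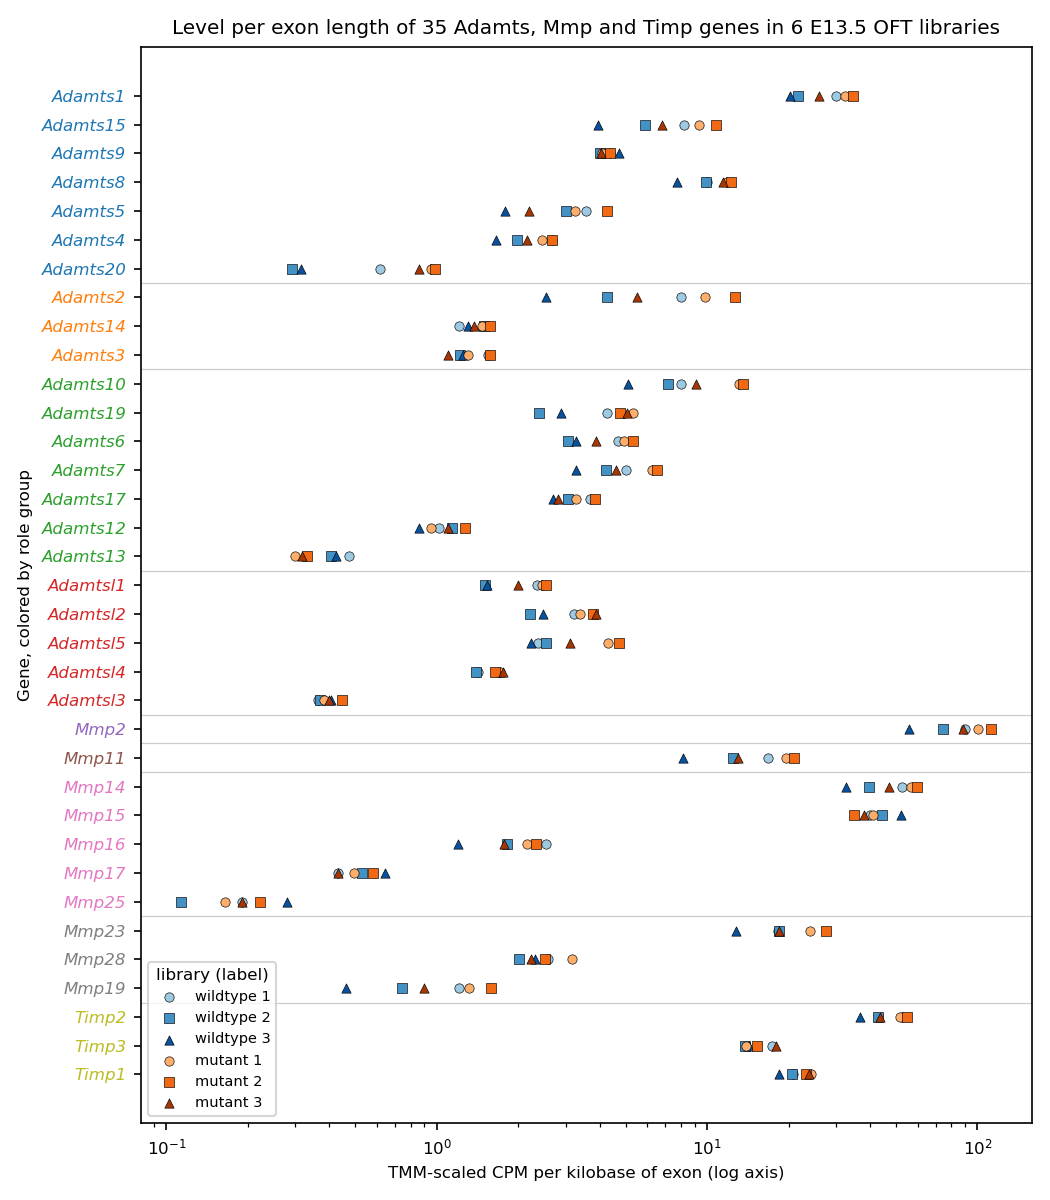
Level of the 35 members with a mean of at least 1 CPM, as TMM-scaled CPM per kilobase of exon on a log axis, with 1 point per library (blue, labelled wildtype; orange, labelled mutant) and genes grouped by role in the same order as in the plot of fold changes. *Mmp2* stands highest, and in most rows the darkest blue triangle, wildtype 3, lies at the left.

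Most of the expressed members had higher values under the mutant label, but none passed the test over all genes. In bulk tissue fewer cells of a type and less RNA per cell cannot be told apart. The log2 fold change of mutant against wildtype was positive for 29 of the 35 members with at least 1 CPM, against 45.3% of all 16655 genes at that level. The median log2 fold change was 0.25 over these 35 members, beside −0.03 over all genes with at least 1 CPM. It was 0.19 over all 43 members, beside 0.011 over all genes tested. In edgeR's quasi-likelihood test 0 of the 43 members reached an adjusted p of 0.05 or less and were called, where 0.0213% of all genes were called (6 genes). At an unadjusted p under 0.05, 14 of the 43 members were higher and 0 were lower, where 8.23% of all genes were higher and 7.83% lower. Among genes with at least 1 CPM these 14 were 40.0% of 35 members, beside 10.2% of all genes that were higher, and 0 members were lower beside 11.9% of all genes. The 14 were *Adamts1*, *Adamts2*, *Adamts7*, *Adamts8*, *Adamts10*, *Adamts15*, *Adamts19*, *Adamts20*, *Adamtsl2*, *Adamtsl5*, *Mmp2*, *Mmp14*, *Mmp23* and *Timp1*. DESeq2's Wald test called 4 members, all higher (*Adamts10*, *Adamts19*, *Adamtsl5* and *Adamts20*), beside 1.46% of all genes. Over the alternatives tried, the adjusted p of these 4 ranged from 0.000183 to 0.642. Limma-voom called 0 members, beside 0.0178% of all genes.

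The mutant values all lay above the wildtype values for 7 of the 43 members, beside 10.7% of all genes, and for 7 of 35 with at least 1 CPM, beside 10.8%. These 7 were *Adamts8*, *Adamts10*, *Adamts19*, *Adamts20*, *Adamtsl2*, *Adamtsl5* and *Timp1*. For 1 member, *Adamts13*, the mutant values all lay below, beside 8.94% of all genes. For these 8 genes the two-sided exact permutation test gave p = 0.1, the smallest value that 3 libraries against 3 allow. Any gene whose labels do not overlap gets this value, so it adds nothing to the separation itself. The number of positive members among the 35 stayed between 26 and 33 under other scalings: it was 33 with scaling by library size alone, which moved the median of all genes from 0.011 to 0.11, and 26 after a correction for gene GC content and length.

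**Figure D2:**
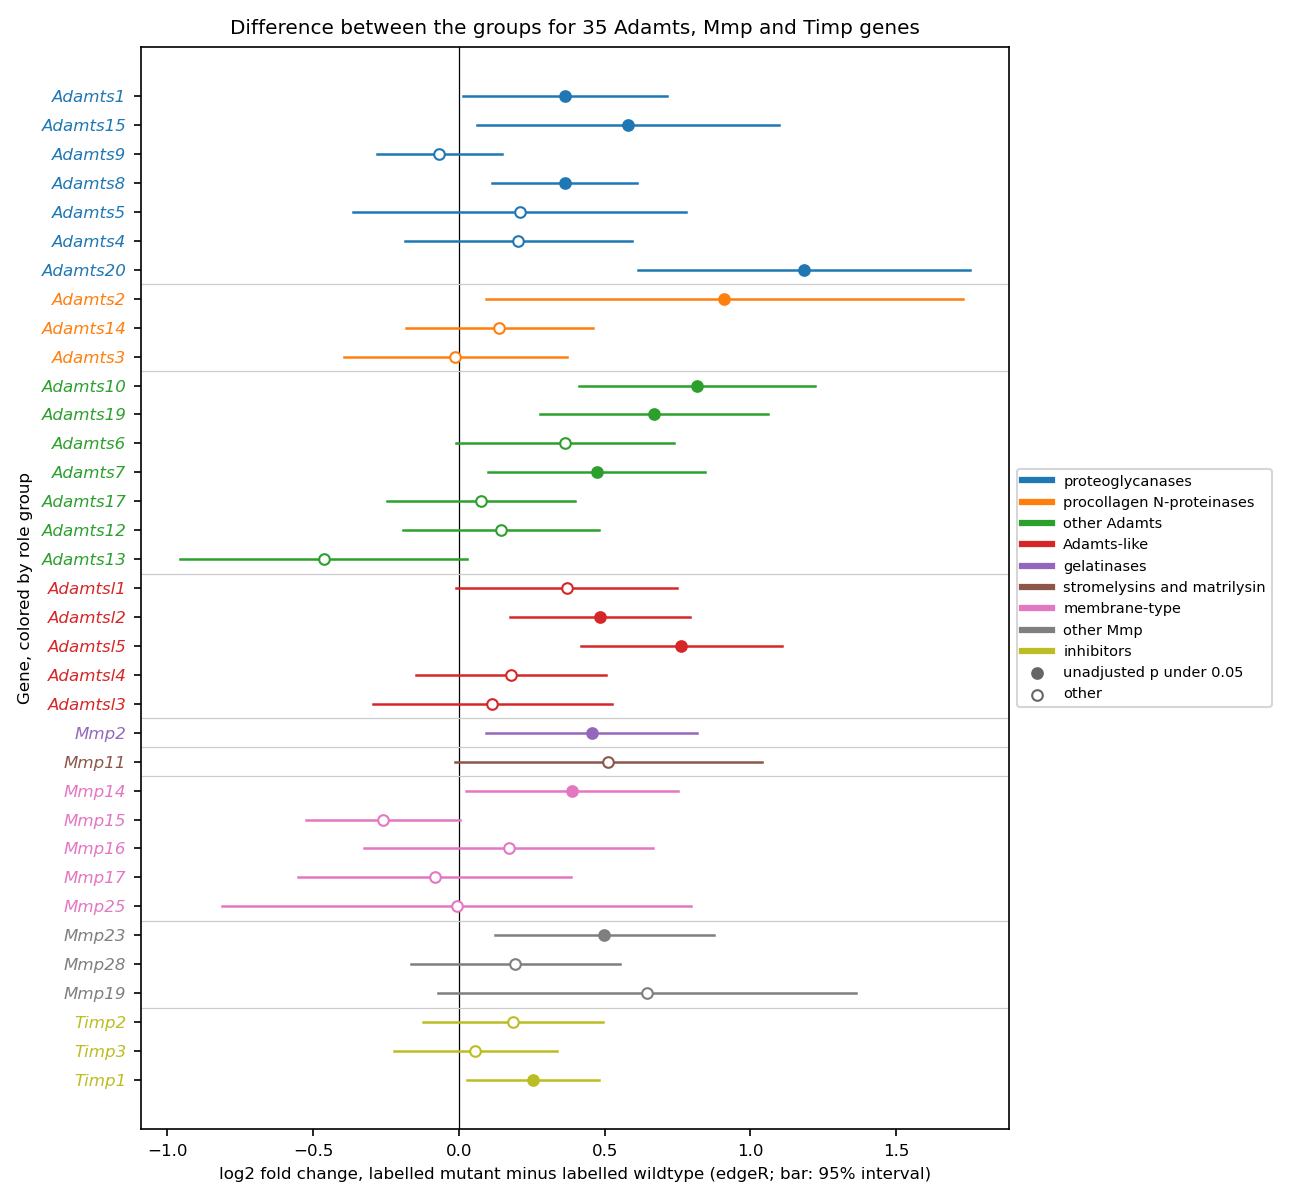
The log2 fold change of mutant against wildtype from edgeR with its 95% interval, for the 35 members with a mean of at least 1 CPM, colored and grouped by role (filled points, unadjusted p under 0.05). A total of 29 points lie above 0, and the 14 filled points are all on that side.

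The proteoglycanases, which cut versican and aggrecan, had 6 of 7 members above 0, with a median log2 fold change of 0.36 and 4 members higher at an unadjusted p under 0.05. *Adamts20*, a versican-cutting protease known from melanoblast and palate development, had the largest log2 fold change of the 35 members. It had 5.53, 2.63 and 2.83 CPM in wildtype 1, 2 and 3 and 8.55, 8.83 and 7.74 CPM in mutant 1, 2 and 3. All mutant libraries lay above all wildtype libraries, and wildtype 1 was nearest to them. The log2 fold change was 1.18 (SE 0.26, 95% interval 0.62 to 1.75, adjusted p = 0.173 from edgeR and 0.00255 from DESeq2). *Adamts20* lies on chromosome 15 of mm10 from 94270163 to 94465418.

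*Adamts1* (chromosome 16, 85793827 to 85803113) had 159, 115 and 107 CPM in the wildtype and 171, 183 and 137 CPM in the mutant libraries. Wildtype 1 lay above mutant 3, so the groups overlapped (log2 fold change 0.36, SE 0.16, adjusted p = 0.296 from edgeR). *Adamts15* had 84.7, 61.2 and 40.9 CPM against 97.0, 112 and 70.6 CPM, with the same overlap (log2 fold change 0.58, SE 0.23, adjusted p = 0.275 from edgeR). *Adamts8*, its neighbour on chromosome 9, had 46.0, 45.6 and 35.8 CPM against 54.7, 56.5 and 52.8 CPM, and here the groups were apart (log2 fold change 0.36, SE 0.11, adjusted p = 0.209 from edgeR). *Adamts9* and *Adamts5*, both known as versican-cutting proteases of the developing cushions and valves, showed smaller differences. *Adamts9* had 65.8, 60.2 and 71.2 CPM against 61.3, 65.9 and 61.0 CPM, and its log2 fold change was −0.07 with a 95% interval of −0.28 to 0.15, or 0.04 with scaling by library size alone. *Adamts5* had 38.4, 32.3 and 19.3 CPM against 34.9, 45.8 and 23.6 CPM, a log2 fold change of 0.21 with a 95% interval of −0.36 to 0.78. *Adamts4*, an aggrecan-cutting protease, had 12.8, 9.54 and 7.95 CPM against 11.8, 12.8 and 10.4 CPM (log2 fold change 0.20, 95% interval −0.19 to 0.59). In *Adamts5* and *Adamts4* wildtype 3 was the lowest of the 6 libraries.

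Of the procollagen N-proteinases, which remove the amino-terminal propeptides of fibrillar collagens, *Adamts2* had the largest difference between the labels. *Adamts2* had 74.7, 39.9 and 23.8 CPM in the wildtype and 91.5, 118 and 51.2 CPM in the mutant libraries. Both groups were widely spread, and mutant 3 lay below wildtype 1 (log2 fold change 0.91, SE 0.37, 95% interval 0.09 to 1.73, adjusted p = 0.276 from edgeR). *Adamts14* and *Adamts3* had log2 fold changes of 0.14 and −0.01, with 95% intervals of −0.18 to 0.46 and −0.40 to 0.37. The difference between *Adamts2* and the other N-proteinases was not tested.

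Among the other Adamts proteases, 6 of the 7 members with at least 1 CPM were above 0 and 3 were higher at an unadjusted p under 0.05. *Adamts10*, which binds fibrillin and is mutated in Weill-Marchesani syndrome, had 66.2, 59.1 and 42.2 CPM in the wildtype and 108, 112 and 74.98 CPM in the mutant libraries. The groups did not overlap (log2 fold change 0.82, SE 0.18, 95% interval 0.41 to 1.223, adjusted p = 0.181 from edgeR and 0.00275 from DESeq2). It lies on chromosome 17 of mm10 from 33524204 to 33553782. *Adamts19*, a gene linked to heart valve disease, had 60.1, 33.6 and 40.4 CPM against 74.96, 67.1 and 71.2 CPM, again without overlap (log2 fold change 0.67, SE 0.18, adjusted p = 0.194 from edgeR and 0.0208 from DESeq2). *Adamts7*, which cuts cartilage oligomeric matrix protein, had 31.4, 26.5 and 20.6 CPM against 39.2, 41.1 and 28.8 CPM, where mutant 3 lay below wildtype 1 (log2 fold change 0.47, SE 0.17, adjusted p = 0.239 from edgeR). *Adamts6* (0.36), *Adamts12* (0.14) and *Adamts17* (0.07) had smaller log2 fold changes. *Adamts13*, the protease that cuts von Willebrand factor, was the member whose mutant values all lay lower, with 2.34, 1.999 and 2.095 CPM against 1.47, 1.63 and 1.56 CPM (log2 fold change −0.46, SE 0.22, adjusted p = 0.335 from edgeR).

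All 5 Adamts-like genes were above 0, with a median log2 fold change of 0.37. *Adamtsl5*, whose product binds fibrillin microfibrils, had the smallest adjusted p of all members. It had 11.2, 11.97 and 10.5 CPM in the wildtype and 20.3, 22.3 and 14.7 CPM in the mutant libraries. The wildtype libraries were close together, the mutant libraries were all higher, and mutant 3 was the lowest of these (log2 fold change 0.76, SE 0.16, 95% interval 0.42 to 1.11, adjusted p = 0.153 from edgeR and 0.00287 from DESeq2). *Adamtsl5* lies on chromosome 10 of mm10 from 80339110 to 80348412. *Adamtsl2*, which binds latent Tgf-β binding protein and is mutated in geleophysic dysplasia, had 25.7, 17.6 and 19.8 CPM against 26.96, 30.3 and 31.1 CPM. Here the gap between the highest wildtype and the lowest mutant library was narrow (log2 fold change 0.48, SE 0.14, adjusted p = 0.196 from edgeR). *Adamtsl1* (0.37), *Adamtsl4* (0.18) and *Adamtsl3* (0.11) had positive log2 fold changes with 95% intervals that included 0.

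*Mmp2* (chromosome 8 of mm10, 92827291 to 92853420) and *Mmp14* (chromosome 14, 54431612 to 54445364) varied together across the libraries. *Mmp2* had 303, 252 and 187 CPM in the wildtype and 339, 380 and 299 CPM in the mutant libraries. *Mmp14* had 313, 237 and 195 CPM against 338, 357 and 280 CPM. In both genes wildtype 3 was lowest, mutant 2 was highest, and wildtype 1 lay above mutant 3. The log2 fold change was 0.46 for *Mmp2* (SE 0.16, 95% interval 0.09 to 0.82, adjusted p = 0.240 from edgeR) and 0.39 for *Mmp14* (SE 0.16, 95% interval 0.02 to 0.75, adjusted p = 0.291 from edgeR).

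*Mmp15*, named here because of its values, did not follow this order, with 216, 239 and 282 CPM in the wildtype and 222, 188 and 205 CPM in the mutant libraries. Wildtype 3 was its highest library and mutant 2 its lowest (log2 fold change −0.26, SE 0.12, 95% interval −0.53 to 0.0036, adjusted p = 0.318 from edgeR). The other membrane-type genes *Mmp16* (0.17), *Mmp17* (−0.08) and *Mmp25* (−0.01) had log2 fold changes within 95% intervals that included 0, and the 5 membrane-type genes with at least 1 CPM had a median of −0.01. *Mmp23* had 42.9, 43.1 and 29.9 CPM against 56.2, 64.6 and 43.0 CPM, with mutant 3 level with wildtype 1 and 2 (log2 fold change 0.50, SE 0.17, adjusted p = 0.231 from edgeR). *Mmp11*, a protease that furin activates inside the cell, had a log2 fold change of 0.51, *Mmp19* of 0.65 and *Mmp28* of 0.19, each with a 95% interval that included 0.

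The inhibitors had smaller log2 fold changes than *Mmp2* and *Mmp14*. *Timp2* had 205, 166 and 143 CPM in the wildtype and 201, 215 and 170 CPM in the mutant libraries (log2 fold change 0.19, 95% interval −0.12 to 0.50, adjusted p = 0.541 from edgeR). *Timp3*, which is bound to the matrix and also inhibits Adamts4 and Adamts5, had 142, 112 and 116 CPM against 114, 125 and 147 CPM (log2 fold change 0.06, 95% interval −0.22 to 0.34, and −0.00093 once GC content and gene length were corrected for). *Timp1* had 18.4, 18.3 and 16.4 CPM against 21.5, 20.6 and 21.2 CPM, with groups that did not overlap (log2 fold change 0.25, SE 0.10, adjusted p = 0.275 from edgeR). The spread of *Timp1* within each label was small, and its difference was the smallest among the 7 members whose mutant values all lay higher.

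Ratios within a library were then computed for 7 pairs of members, chosen after their values were seen. The ratio of *Mmp2* to *Timp2* CPM was 1.48, 1.51 and 1.31 in wildtype 1, 2 and 3 and 1.69, 1.77 and 1.76 in mutant 1, 2 and 3. Its mean was 1.43 ± 0.111 in the wildtype and 1.74 ± 0.0417 in the mutant libraries (SD, n = 3 each), a log2 difference of 0.28 (two-sided exact permutation test, p = 0.1, and 0.35 adjusted over the 7 ratios). The ratio of *Mmp14* to *Timp2* was 1.53, 1.42 and 1.36 against 1.69, 1.67 and 1.65, a log2 difference of 0.21 with the same exact p = 0.1 and adjusted 0.35. In both ratios all mutant libraries lay above all wildtype libraries, which by itself gives p = 0.1 in the exact permutation test. With 3 libraries against 3 an exact p cannot be lower. The adjustment covers the 7 ratios only and not the choice of these pairs after their values were seen. How many other genes separate the labels in their ratio to *Timp2* was not counted. The ratio of *Mmp2* to *Mmp14* ranged from 0.961 to 1.06 in the wildtype and from 1.00 to 1.07 in the mutant libraries, with overlapping groups (exact permutation test, p = 0.3). The ratios of *Mmp14* to *Mmp15*, *Adamts1* to *Timp3*, *Adamts15* to *Adamts8* and *Adamts1* to *Adamts5* also overlapped between the labels, with exact permutation p between 0.2 and 0.6.

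**Figure D3:**
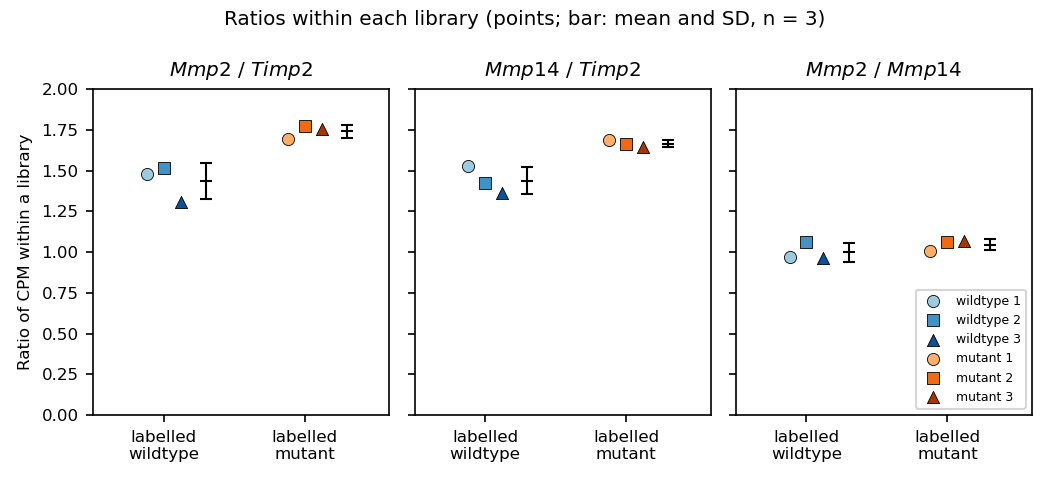
Ratio of CPM between 2 genes within each library (points, 1 per library; bars, mean and SD of 3 libraries), for *Mmp2* to *Timp2*, *Mmp14* to *Timp2* and *Mmp2* to *Mmp14*. In the first 2 panels the mutant points, from 1.65 to 1.77, lie above the wildtype points, from 1.31 to 1.53, and in the last panel the labels overlap.

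The 8 members with a mean under 1 CPM were *Adamts16*, *Adamts18*, *Mmp8*, *Mmp9*, *Mmp12*, *Mmp13*, *Mmp24* and *Timp4*. They comprise both collagenases among the members, the other gelatinase, *Mmp9*, and the macrophage elastase *Mmp12*, and *Timp4*, an inhibitor known from adult heart. *Mmp9* had 3, 6 and 9 counts in the wildtype and 5, 3 and 8 counts in the mutant libraries. *Timp4* had 1, 15 and 7 counts against 5, 3 and 12 counts. *Mmp8* had 0, 6 and 0 counts against 1, 0 and 2 counts. The other 5 had between 1 and 46 counts per library. At this depth a count of 0 allows up to 3 counts, and no difference between the labels was detectable for these genes, whose 95% intervals all included 0.

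Promoter sequences are shown for 4 members, *Adamtsl5*, *Adamts20* and *Adamtsl2*, which had the smallest adjusted p among the members with a promoter in the table, and *Mmp14*, the activator of proMmp2. The sequences run 5′ to 3′ on the strand of the gene, from 250 bases before to 50 bases after the RefSeq start, and come from RefSeq on GRCm38.p6, whose main chromosomes are those of mm10. They cover chr10:80348399-80348698 (minus strand) for *Adamtsl5*, chr15:94404301-94404600 (minus strand) for *Adamts20*, chr2:27079129-27079428 (plus strand) for *Adamtsl2* and chr14:54431348-54431647 (plus strand) for *Mmp14*. Capitals mark the letters TGGGAA, the core bound by Rbpj, the DNA-binding partner of Notch, and GGGCGG, the core of Sp factor sites, each on either strand.
Adamtsl5: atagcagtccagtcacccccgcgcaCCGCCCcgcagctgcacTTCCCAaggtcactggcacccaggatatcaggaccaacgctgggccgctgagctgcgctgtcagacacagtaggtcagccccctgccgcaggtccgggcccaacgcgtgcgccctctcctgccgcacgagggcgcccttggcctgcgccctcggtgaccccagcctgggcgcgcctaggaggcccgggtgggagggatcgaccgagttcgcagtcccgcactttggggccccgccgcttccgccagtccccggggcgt
Adamts20: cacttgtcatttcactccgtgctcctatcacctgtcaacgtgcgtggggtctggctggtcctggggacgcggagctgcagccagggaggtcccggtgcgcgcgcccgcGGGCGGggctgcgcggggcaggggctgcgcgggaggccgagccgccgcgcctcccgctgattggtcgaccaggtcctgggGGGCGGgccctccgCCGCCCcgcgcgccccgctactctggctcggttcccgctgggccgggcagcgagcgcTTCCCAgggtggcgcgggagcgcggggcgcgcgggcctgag
Adamtsl2: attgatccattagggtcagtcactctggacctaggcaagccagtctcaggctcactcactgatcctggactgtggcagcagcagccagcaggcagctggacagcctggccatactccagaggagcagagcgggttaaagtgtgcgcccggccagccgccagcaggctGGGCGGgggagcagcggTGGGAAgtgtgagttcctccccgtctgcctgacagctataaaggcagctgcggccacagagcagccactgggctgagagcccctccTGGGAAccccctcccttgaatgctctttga
Mmp14: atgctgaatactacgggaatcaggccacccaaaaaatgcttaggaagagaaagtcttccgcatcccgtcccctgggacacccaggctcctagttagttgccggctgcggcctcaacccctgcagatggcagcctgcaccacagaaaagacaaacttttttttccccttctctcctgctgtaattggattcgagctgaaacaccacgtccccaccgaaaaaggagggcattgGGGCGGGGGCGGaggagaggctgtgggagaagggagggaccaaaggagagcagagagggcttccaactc

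The letters TGGGAA occur 2 times in the *Adamtsl2* promoter, 1 time each in those of *Adamtsl5* and *Adamts20* and 0 times in that of *Mmp14*. GGGCGG occurs 3 times for *Adamts20*, 2 times in adjoining copies for *Mmp14* and 1 time each for *Adamtsl5* and *Adamtsl2*. Of the 43 members, 28 had an entry in the RefSeq table, with 30 promoters. Of these 30, 36.7% held TGGGAA and 73.3% held GGGCGG, beside 25.6% and 35.7% of all 32851 promoters of the same length. The median GC content was 64.2% for the promoters of members and 52.7% for all promoters. The AP-1 letters TGANTCA, known from inducible *Mmp* genes, were in 6.67% of the promoters of members, in 0 of the 23 promoters of members with at least 1 CPM, and in 7.81% of all promoters. The RefSeq start of *Adamts20* lies inside the gene as GENCODE gives it, so another start may be in use. A match of these letters is a description of the sequence and not evidence that a factor binds there.

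The members differed between libraries of the same label as well as between labels. Of the 35 members, 19 had their lowest CPM in wildtype 3 and 23 had their highest in mutant 2, where 23.8% of all genes with at least 1 CPM were lowest in wildtype 3 and 17.8% were highest in mutant 2. The median deviation of the 35 members from their own means, on the log2 scale, was 0.08 in wildtype 1, −0.18 in wildtype 2 and −0.38 in wildtype 3. It was 0.17, 0.27 and −0.06 in mutant 1, 2 and 3. Wildtype 1 therefore stood above mutant 3 in this measure. The summed CPM of the 35 members was 2141, 1752 and 1564 in the wildtype and 2319, 2470.4 and 1983 in the mutant libraries.

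Markers of mesenchymal cells moved with the members across the libraries. The 6 mesenchymal markers, matrix and fibroblast genes such as *Col1a1*, *Postn* and *Pdgfra*, all had a positive log2 fold change, with a median of 0.56 and 4 of 6 higher at an unadjusted p under 0.05. Their summed level was 6694, 4815 and 3380 CPM in the wildtype and 7498, 8286 and 6286 CPM in the mutant libraries. The order of the 6 libraries in this sum was the same as in the median deviation of the members, from wildtype 3 up to mutant 2. The 8 myocardial markers went the other way, with 0 of 8 above 0, a median log2 fold change of −0.47, 5 of 8 lower at an unadjusted p under 0.05 and summed levels of 15459.9 to 21621 CPM in the mutant and 22478 to 32456 CPM in the wildtype libraries. Blood markers had a median log2 fold change of −0.56 and endothelial markers of −0.11, with 0 of 5 and 0 of 6 above 0, and 4 of the 5 blood markers and 0 of the 6 endothelial markers were lower at an unadjusted p under 0.05. The 4 liver markers were all lower at that threshold, with a median log2 fold change of −3.39 and their highest levels in wildtype 2 and 3. The summed level of the blood markers was likewise highest in wildtype 2 and 3, at 6255 and 5389 CPM. In wildtype 1 the blood markers summed to 3050 CPM, below the 3270 to 3403 CPM of the mutant libraries. Cartilage markers had a median of 0.39, neural crest and glial markers of 0.37, smooth muscle markers of 0.08, macrophage markers of 0.01 and epicardial markers of −0.08. The movement with the members was not particular to mesenchymal markers. The median deviation of the cartilage markers was 0.26, −0.17 and −0.62 in the wildtype and 0.47, 0.41 and −0.19 in the mutant libraries. For neural crest and glial markers it was 0.22, −0.47 and −0.40 against 0.12, 0.21 and 0.19. The part of cell composition in the members' differences was not tested.

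**Figure D4:**
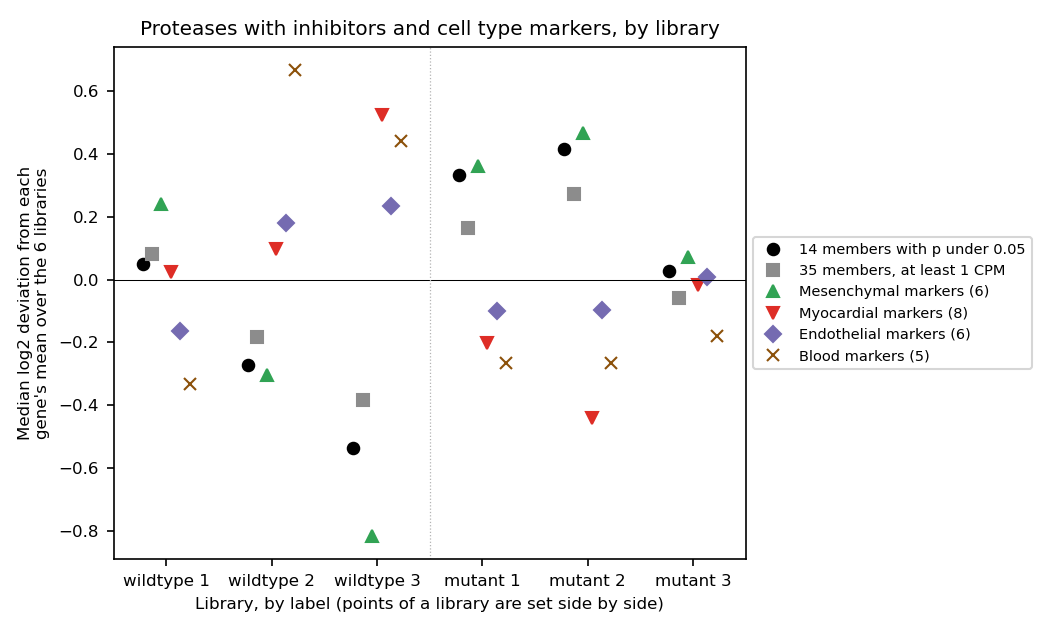
Median log2 deviation from each gene's mean over the 6 libraries, per library, for the 14 members with an unadjusted p under 0.05, the 35 members with at least 1 CPM and 4 lists of cell type markers (number of genes in brackets). The 14 members were picked by their difference between the labels in these same libraries, so their split between the labels follows from that choice. Members and mesenchymal markers are lowest in wildtype 3 and highest in mutant 2, and myocardial markers are highest in wildtype 3 and lowest in mutant 2.

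As a description chosen after the data were seen, the members were expressed relative to the mean log2 level of the 6 mesenchymal markers in the same library. On this scale 1 of the 35 members, *Adamts20*, had mutant values all above the wildtype values (log2 difference 0.55), where 0.360% of all genes with at least 1 CPM did. A total of 10 members lay lower without overlap, among them *Mmp14* (−0.20), *Timp2* (−0.41), *Adamts9* (−0.67) and *Adamts5* (−0.39), where 26.6% of all genes did. The median log2 difference was −0.35 over the 35 members and −0.63 over all genes with at least 1 CPM. A difference above 0 was found for 7 of the 35 members and 561 of the 16655 genes. The 7 members included *Adamts2* (0.37), *Adamts10* (0.21) and *Adamtsl5* (0.12).

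The calls of the edgeR test without a block depended on wildtype 1. Without that library, edgeR called 14 of the 43 members, all higher, beside 4.15% of all genes that were called higher, and among genes with at least 1 CPM the 14 of 35 stood beside 6.48%. The wildtype libraries left in that fit, wildtype 2 and 3, are the ones with summed liver markers of 91.0 and 24.8 CPM, beside 1.33 CPM in wildtype 1. These were *Adamts1*, *Adamts2*, *Adamts6*, *Adamts7*, *Adamts8*, *Adamts10*, *Adamts15*, *Adamts19*, *Adamts20*, *Adamtsl1*, *Adamtsl2*, *Adamtsl5*, *Mmp2* and *Mmp14*. In that fit the log2 fold change was 1.62 for *Adamts20* (adjusted p = 0.00506 from edgeR), 1.44 for *Adamts2* (0.0306), 0.96 for *Adamts10* (0.0242), 0.94 for *Adamts19* (0.00664) and 0.76 for *Adamtsl5* (0.0320). *Mmp2* reached 0.63 (adjusted p = 0.0292 from edgeR) and *Mmp14* 0.59 (0.0264), and the median of the 35 members was 0.43. Over all alternatives the adjusted p ranged from 0.00114 to 0.690 for *Adamts2*, from 0.0216 to 0.654 for *Mmp2* and from 0.0264 to 0.690 for *Mmp14*. Leaving out any of the other 5 libraries gave 0 called members, and over all genes between 1 and 3 calls. Wildtype 1 lay nearer to the mutant libraries on the first principal component of the genes with at least 1 CPM, at −7.08, beside 21.8 and 43.7 for wildtype 2 and 3 and −23.5, −31.4 and −3.55 for the mutant libraries.

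**Figure D5:**
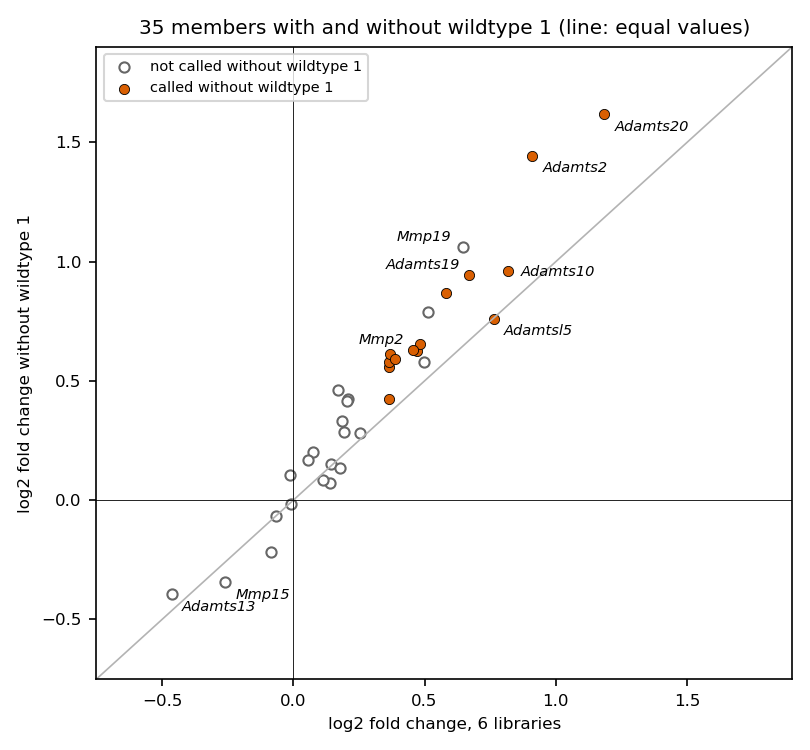
The log2 fold change of the 35 members with at least 1 CPM in all 6 libraries (x axis) and without wildtype 1 (y axis), with the members that edgeR called without wildtype 1 filled. Most points lie above the line of equal values, with *Adamts20* and *Adamts2* farthest up, while *Mmp15* and *Adamts13* lie below 0 on both axes.

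Several members are neighbours in the genome. *Adamts1* and *Adamts5* lie 53.1 kb apart on chromosome 16 with log2 fold changes of 0.36 and 0.21, and *Adamts15* and *Adamts8* lie 20.1 kb apart on chromosome 9 with 0.58 and 0.36, in both cases with 0 coding genes between. *Adamts13* and *Adamtsl2* lie 69.8 kb apart on chromosome 2 and differed in sign (−0.46 and 0.48). Both are close to the targeted *Notch1* locus, at distances of 0.457 Mb and 0.563 Mb, and linkage to the knockout allele was not tested. Exons of *Timp3* share 21.3% of their length with exons of *Syn3* on the other strand, those of *Mmp19* share 22.3% with *Tmem198b*, those of *Mmp24* 13.6% with *BC029722*, those of *Mmp28* 12.03% with *1700020L24Rik* and those of *Adamts8* 10.6% with an antisense transcript. Smaller shares, from 1.53% to 9.18%, were found for *Adamts4*, *Adamts7*, *Adamts9*, *Mmp11*, *Mmp12* and *Timp4*. Whether the counting used the strand is not given in the sources used here, so the levels of these genes are uncertain to that extent.

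A list of 37 related genes of matrix proteolysis (convertases, plasminogen activators, serpins, Adam and tolloid proteases, and substrates) was read from the same fit. Of these 37, 28 had a positive log2 fold change, beside 51.2% of all genes, the median was 0.25, and 0 were called by edgeR. At an unadjusted p under 0.05, 11 were higher and 1, *Pcsk6*, was lower, beside 8.23% and 7.83% of all genes. Most of the list had at least 1 CPM. Of all genes at that level 45.3% had a positive log2 fold change, and 10.2% were higher and 11.9% lower at this threshold. *Adam8*, a membrane disintegrin protease, had 2.07, 1.42 and 1.91 CPM in the wildtype and 4.30, 3.63 and 3.34 CPM in the mutant libraries (log2 fold change 1.06, adjusted p = 0.159 from edgeR and 0.00786 from DESeq2). *Bmp1*, the procollagen C-proteinase that works beside Adamts2, had 126, 110 and 91.9 CPM against 181, 183 and 135 CPM (log2 fold change 0.61, adjusted p = 0.181 from edgeR and 0.0106 from DESeq2). *Pcsk6*, a convertase of proenzymes, had 23.2, 19.7 and 27.3 CPM against 18.2, 16.5 and 13.53 CPM (log2 fold change −0.54, adjusted p = 0.194 from edgeR and 0.0410 from DESeq2). In these 3 genes the labels did not overlap. Of all 37 related genes, 10 had mutant values all higher and 2 all lower, beside 10.7% and 8.94% of all genes. These include 2 genes under 1 CPM with few counts. *Tll2*, counted as lower, had 4, 5 and 4 counts in the wildtype and 2, 1 and 3 counts in the mutant libraries. *Bcan*, counted as higher, had 7, 6 and 7 counts against 11, 9 and 9 counts. *Vcan*, which encodes versican, the main substrate of the proteoglycanases in the cushions, had 1649.7, 888 and 906 CPM against 1559, 1620 and 1456 CPM, where wildtype 1 was the highest of the 6 libraries (log2 fold change 0.43, adjusted p = 0.342 from edgeR).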

How the data were processed

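Total RNA libraries of E13.5 OFT, stranded and depleted of ribosomal RNA, were sequenced by the authors as paired-end reads, 3 libraries labelled mutant and 3 labelled wildtype. Per the paper's methods and the submitters' processing notes, 3 nucleotides were trimmed from one end of the first reads, reads were aligned to mm10 with TopHat2 2.1.0 and reads on exons were counted with GenomicAlignments. The authors deposited a table of raw counts, 1 whole number per gene and library. The annotation release, the use of strand and the treatment of overlapping genes are not given in the sources used here. Depth was 34729103 to 44387490 counts per library, and intervals and the floor of 3 counts cover counting error and the spread between pools only.

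Counts were analysed in R 4.3.3. Genes with a summed count above 5 were normalized by TMM and tested across all 28157 genes with edgeR 4.0.16's quasi-likelihood test and Benjamini-Hochberg adjustment, and those with an adjusted p of 0.05 or less were called. Standard errors are the log2 fold change over the root of F, and 95% intervals use the fit's total degrees of freedom (prior 6.67, residual 4, biological coefficient of variation 0.17). Single genes and ratios were compared with two-sided exact permutation tests, for genes on log2 of CPM plus 0.5. Alternatives were DESeq2 1.42.0's Wald test, limma-voom (limma 3.58.1), DESeq2 size factors, library size only, no filter, filterByExpr, a replicate block, a GC content and length correction, both together, an adjusted p of at most 0.01 and each library left out. A block on the numbers of the descriptions and levels relative to the mesenchymal markers were added after seeing the data. Gene positions, merged exon lengths and GC content came from GENCODE M21 (99.8% of identifiers). In a test on simulated data, counts were drawn for 28777 genes and 200 of them were changed, of which edgeR recovered 186 (86 of 100 changed 2-fold and 100 of 100 changed 4-fold) with 15 false calls. The changed genes had a mean of at least 1 CPM, and each gene was drawn independently. No deviation shared by the genes of a library was simulated, so these rates need not hold for the deposited libraries. There *Nos3* was not called at a log2 fold change of −0.98 (adjusted p = 0.128 from edgeR).

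The members and lists were chosen with earlier results of these data known. Named members are those with an unadjusted p under 0.05 and a mean of at least 1 CPM, plus *Adamts1*, *Adamts4*, *Adamts5*, *Adamts9*, *Adamts19*, *Mmp2*, *Mmp9*, *Mmp14* and *Timp1* to *Timp4*. Others are given in brief, and *Mmp15* and *Adamts13* were picked with their values in view. Protein sequences, single-cell data and patient variants were not analysed here.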

Additional observations from a re-analysis of the deposited data

How the results depend on the processing

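The main test called 0 members, as did DESeq2 size factors, library size only, no filter, filterByExpr, limma-voom and the GC content and length correction, while DESeq2's Wald test called 4. Leaving out 1 library gave 0 to 14 members, with 14 only without wildtype 1. With a replicate block on the numbers of the titles 13 members were called, and 12 when the block was combined with the GC content and length correction (11 higher, and *Mmp15* lower). The numbers were not taken to pair the libraries. Deviations from the group means correlated at 0.0960, 0.159 and 0.420 for pairs 1, 2 and 3. Wildtype 1 correlated best with mutant 2 (0.277), while wildtype 2 and wildtype 3 each correlated best with the mutant library of the same title number. A block on the numbers of the descriptions, added after seeing the data, called 1 member, *Adamts20*. Over all genes the main test called 6, DESeq2 749, the block 1577, the block with the GC content and length correction 2279 (918 higher and 1361 lower, beside 895 and 682 with the block alone), the block by descriptions 83 and an adjusted p of at most 0.01 2 genes, and leaving out 1 library gave 1 to 2593. Of the 37 related genes DESeq2 called 3, the block 9, the block with the correction 9, and leaving out 1 library 0 to 10. The paper, with DESeq2 1.26.0 and the same threshold, reported more differentially expressed genes than the 749 that DESeq2 called here. Its table of genes with variants in both tetralogy of Fallot cohorts lists *ADAMTS8* and *ADAMTS20* as differentially expressed in the mouse. DESeq2 here did not call *Adamts8* (adjusted p = 0.0817 from DESeq2). The reason for this difference was not tested.

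Members near 0 changed sign. The log2 fold change of *Timp3* was −0.00093 with the GC content and length correction, −0.0072 with the block as well and −0.051 to 0.17 with 1 library left out. That of *Adamts9* was 0.038 with library size only, and that of *Adamts5* −0.041 to 0.43 with 1 library left out. For *Timp4*, at few counts, it was 0.25 with limma-voom, 0.014 with the block, 0.0028 with the block by descriptions and −0.93 to 0.62 with 1 library left out, and for *Mmp9* −0.62 to 0.39. With 1 library left out, the median of the smooth muscle markers was −0.029 to 0.23, of the epicardial markers −0.22 to 0.15, of the macrophage markers −0.091 to 0.18 and of the neural crest and glial markers 0.23 to 0.65. Of the other values of the 21 named members and *Mmp15*, leaving aside the settings added later, 297 kept direction and side of the threshold and 39 were called in the same direction. Among the members given in brief, the log2 fold change over these settings spanned 0 for *Mmp16* (−0.061 to 0.46), *Adamts17* (−0.061 to 0.20), *Adamts14* (−0.048 to 0.25), *Adamts3* (−0.16 to 0.10), *Mmp17* (−0.25 to 0.068) and *Mmp25* (−0.28 to 0.33), and for *Mmp8*, *Mmp12* and *Mmp24*, which are under 1 CPM. *Mmp11* was called under 2 settings, and *Adamts6* and *Adamtsl1* under 1 each. Why the counts differ between settings was not tested. Depth limits the 8 members under 1 CPM.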
